A study of Mus musculus with 3 samples.

Results

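The expression of 37 DNA replication and S phase genes was examined in single-cell RNA sequencing (scRNA-seq) data of the mouse intestinal epithelium after loss of the transcription factor gene Arid3a. The genes were a fixed list matched to the gene symbols of the count matrices. All 37 matched exactly 1 of the 51912 genes listed, and their UMIs were summed over cells with at least 1000 detected genes and at most 15% of UMIs from mitochondrial genes. A unique molecular identifier (UMI) marks 1 captured transcript, so that amplified copies are counted once. Levels are given as CPM, the UMIs of a gene per 1000000 UMIs of the same cells.

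The data came from 3 libraries, 2 labelled Arid3a cKO (VillinCreERT2, Arid3a fl/fl) and 1 labelled WT (VillinCreERT2 alone). Cre recombinase fused to a modified oestrogen receptor was carried by mice of both genotypes, and mice of both received tamoxifen at 8 to 10 weeks of age and were harvested 1 month after the first injection. Villin drives the recombinase in epithelial cells, so the deletion is limited to them. Crypts were isolated, dissociated and sorted for live Epcam-positive cells lacking CD45 and CD31, and sequenced with the 10x Genomics 3′ chemistry. The tissue was labelled intestine with no segment, and the labels do not state how many animals went into a library. The series' design text names 2 biological replicates per condition, and a further WT library was not analysed here. With 1 WT library every cKO difference is also a difference from that library, and an exact permutation test over 3 libraries cannot give a p below 0.333. Both cKO comparisons share this WT library, so their values are set side by side and are not independent. The cKO libraries are called cKO 1 and cKO 2, and where 3 values are given in a row they belong to cKO 1, cKO 2 and WT in that order.

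Before a cell divides it copies its genome once. The MCM ring is loaded on replication origins in G1 and, once fired with Cdc45 and the GINS complex, becomes the helicase that opens the DNA for the polymerases, while other enzymes supply deoxynucleotides and rebuild chromatin behind the fork. In the intestine this takes place in the crypt, in Lgr5+ intestinal stem cells (ISCs) and transit-amplifying (TA) progenitors, and ends as enterocytes move onto the villus. Transcription of many of these genes is switched on at the G1/S border by E2F factors.

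The rule that chose the genes did not use sequence, and their promoters are shown for what they share. RefSeq promoters (GRCm38.p6, from 250 bases before to 50 bases after the annotated start) were matched by symbol for 28 of the 37 genes. Mcm4, Gins2, Gmnn, Rfc2, Dscc1, Atad2, Tipin, Exo1 and Usp1 had no entry in the table used. The letters TTTCCCGC, TTTGGCGC, TTTCGCGC and TTTGCCGC, which are forms of the E2F consensus, were searched on both strands, and TTTCGCGC can overlap the reverse strand form of TTTGGCGC. A match was held by 13 of the 28 genes (46.4%), against 2.61% of all 27025 genes with a promoter and 6.07% of the 4412 of these with at least 20 CPM in crypt cells. The box CCAAT was held by 20 of the 28 genes (71.4%), against 41.1% of all genes and 43.7% of those with at least 20 CPM. For TTTGAA, the core of the CHR element of G2/M genes, the values were 5 (17.9%), 20.2% and 14.3%. These are counts of letters and not of bound sites. The E2F matches were in Mcm3, Mcm5, Mcm6, Mcm7, Cdc6, Pola1, Pold3, Uhrf1, Hells, Cdca7, Clspn, Dtl and Casp8ap2. Of these, 5 are shown because they include the helicase subunits with overlapping matches, and Hells and Cdca7. Among the 37 genes, Hells and Cdca7 had the lowest mean log2 ratios of CPM + 5 in cKO over WT in crypt cells. In each of the 5, the 30 bases around the match read as follows, 5′ to 3′ on the gene's strand with the match in capitals.
Mcm5 (chr8:75109347-75109376, plus strand): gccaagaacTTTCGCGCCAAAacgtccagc
Mcm6 (chr1:128359795-128359824, minus strand): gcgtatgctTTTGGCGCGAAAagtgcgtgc
Cdc6 (chr11:98908002-98908031, plus strand): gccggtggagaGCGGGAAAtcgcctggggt
Cdca7 (chr2:72476137-72476166, plus strand): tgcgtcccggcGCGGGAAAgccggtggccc
Hells (chr19:38930917-38930946, plus strand): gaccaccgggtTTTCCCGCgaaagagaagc
In Mcm5 and Mcm6 the capitals cover 2 overlapping matches each, and Mcm6 has another match 47 bases before its start.

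All 37 genes are protein-coding in GENCODE M21 (GRCm38) and they lie on 17 chromosomes, with gene lengths from 4.15 kb (Pcna) to 327.4 kb (Pola1). Annotated pseudogene copies named for a member took few UMIs in crypt cells, with 11, 5 and 11 for Pcna-ps2 and at most 1 for Nasp-ps1 and Pcna-ps1.

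The matrices held from 94614297 to 129243053 UMIs per library, and 2134, 1550 and 1910 cells passed the limits, with 29895 to 35764 UMIs in the median cell. Of all barcodes 66.4% to 79.2% per library exceeded the mitochondrial limit. Libraries shared 11 to 18 barcodes. The targeted gene, Arid3a, stood at 0.592, 0.894 and 2.57 CPM over all kept cells, from 42, 52 and 161 UMIs, although a 3′ count can include transcripts of a deleted allele. Of 11 clusters, made without the S phase, other replication and G2M lists, cluster 1 was ISC-like (992 cells) and cluster 3 TA-like (688 cells), and both together are called crypt cells. Ung, Cdca7, Hells, Mcm3 and Mcm6 were among the top 10 genes of the ISC-like cluster although they had not been used to build it. The 10 immune, 4 endothelial and 6 stromal marker genes summed to at most 0.358, 4.58 and 0.128 CPM in the crypt cells of any library. Ptprc, which encodes CD45, had 0, 3 and 1 UMIs there and the stromal gene Col1a1 had 0 in each library. All intervals are 95% intervals and cover counting error only.

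Summed over all kept cells, the 37 genes reached 991 CPM for cKO 1 (983 to 998), 1079 CPM for cKO 2 (1071 to 1088) and 1113 CPM for WT (1105 to 1121). In such sums fewer cells of a type and less RNA per cell cannot be told apart. In the 640, 452 and 588 crypt cells they had 2309 CPM (2290 to 2329), 2505 CPM (2482 to 2527) and 2550 CPM (2529 to 2571). WT was the highest of the libraries, and the log2 ratios to it were -0.14 and -0.03. The cKO libraries therefore lay further from each other than the nearer of them lay from WT. Within the ISC-like cells the sums were 2288, 2561 and 2616 CPM, and within the TA-like cells 2333, 2456 and 2482 CPM. In both clusters the counting intervals of cKO 2 and WT overlapped, and that of cKO 1 lay below them.

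Gene by gene, 22 of the 37 lay below WT in both cKO libraries, 4 lay above WT in both (Mcm4, Gins2, Rfc2 and Usp1) and 11 lay between. Of 5603 genes with at least 20 CPM in crypt cells 28.7% lay below WT in both and 39.1% above in both. Of the 33 members that reached 20 CPM, 19 lay below in both and 4 above in both. The median log2 ratio of CPM + 5 was -0.10 over the members (-0.12 for cKO 1 and -0.02 for cKO 2) and 0.02 over the 5603 genes. Counting intervals of both cKO libraries fell below that of WT for 4 members (Mcm6, Nasp, Hells and Cdca7), against 5.35% of the 5603 genes, and above it for 0 members, against 9.82%. With totals scaled by TMM, 20 members lay below and 3 above, since Cdc45, Fen1 and Mcm4 then lay between.

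When UMIs were summed per library and tested with edgeR's quasi-likelihood test, 0 of the 37 genes passed an adjusted p of 0.05, and 1 (Hells) had an unadjusted p under 0.05. DESeq2 likewise called 0 and had 1 under 0.05. Over all 14332 genes tested, edgeR called 0.851% lower and 0.572% higher in cKO. This test has 1 residual degree of freedom, taken from the cKO pair, and assumes that WT libraries vary as much.

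**Figure D1:**
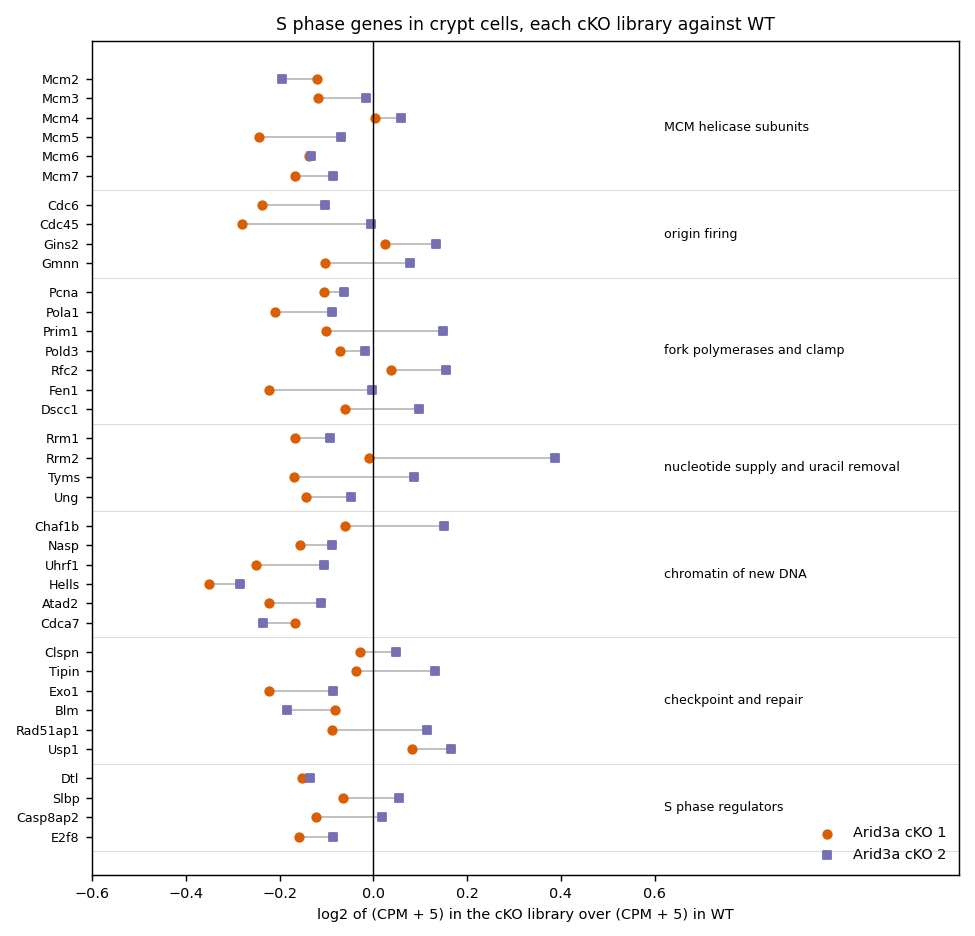
Log2 ratio of CPM + 5 in each cKO library over CPM + 5 in WT (horizontal axis) for the 37 genes in crypt cells, grouped by role, with circles for cKO 1 and squares for cKO 2. Hells lies furthest left (-0.35 and -0.29), Rrm2 in cKO 2 furthest right (0.39), and most circles lie to the left of their squares.

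The MCM subunits form the ring that becomes the replicative helicase. Mcm6 (chr1:128331590-128359664, minus strand of GRCm38) had 108 CPM (104 to 112), 108 CPM (104 to 113) and 119 CPM (115 to 124), a difference of -0.14 and -0.13 on the log2 scale (edgeR adjusted p = 0.945). Both cKO intervals ended below that of WT. Mcm5 had 65.9, 75.01 and 79.0 CPM, Mcm7 had 106, 113 and 120 CPM, and Mcm2 had 37.3, 35.2 and 41.0 CPM. Mcm3 had 68.3, 73.6 and 74.6 CPM. Mcm4 stood apart from its partners in the ring, with 51.8, 54.0 and 51.7 CPM. The sum over the 6 subunits was 437, 459 and 485 CPM, with WT the highest of the libraries.

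Origin firing was represented by Cdc6, which loads the MCM ring, Cdc45 and the GINS subunit Gins2, which activate it, and Gmnn (geminin), which blocks the loading factor Cdt1 until division is over. Cdc6 had 13.8, 15.6 and 17.1 CPM and Cdc45 had 17.7, 22.5 and 22.6 CPM. Gins2 had 40.1, 43.6 and 39.3 CPM, lowest in WT. Gmnn had 116, 132 and 125 CPM, with WT between the cKO libraries. The 4 genes summed to 188, 214 and 204 CPM, so WT stood between the cKO libraries.

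At the fork, Pcna is the sliding clamp and Rfc2 a subunit of its loader, Dscc1 belongs to an alternative loader, Pola1 and Prim1 form part of the enzyme that lays down primers, Pold3 is a subunit of DNA polymerase delta, and Fen1 trims Okazaki fragments. Pcna (chr2:132249162-132253314, minus strand of GRCm38) had 103, 106 and 111 CPM, with counting intervals that overlapped between each cKO library and WT. Rfc2 had 81.6, 89.0 and 79.5 CPM, Fen1 had 59.9, 70.5 and 70.7 CPM, and Prim1 had 56.9, 68.5 and 61.4 CPM. Pola1 was at 31.1, 34.2 and 36.7 CPM and Pold3 at 39.8, 41.5 and 42.1 CPM, while Dscc1 was at 11.2, 13.05 and 11.9 CPM. Together the 7 genes had 384, 423 and 413 CPM, again with WT in the middle.

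Nucleotide supply rests on ribonucleotide reductase, whose subunits are encoded by Rrm1 and Rrm2, and on thymidylate synthase (Tyms), while Ung removes uracil from DNA. Rrm2 (chr12:24708241-24714146, plus strand of GRCm38) had 49.0 CPM (46.2 to 52.0), 66.2 CPM (62.6 to 69.9) and 49.4 CPM (46.5 to 52.5). Only the interval of cKO 2 stood apart, and edgeR gave an adjusted p of 0.847. Its partner Rrm1 had 73.9, 78.1 and 83.6 CPM and Tyms had 127, 152 and 143 CPM. Ung had 34.2, 36.9 and 38.3 CPM.

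The chromatin genes included the members with the lowest cKO values relative to WT. Hells (ENSMUSG00000025001, chr19:38930915-38971051, plus strand of GRCm38), a chromatin remodeller needed for DNA methylation, had 103 CPM (99.0 to 107), 108 CPM (103 to 113) and 133 CPM (128 to 138). Both cKO intervals ended below that of WT. The log2 ratios were -0.35 and -0.29, and edgeR's quasi-likelihood test with Benjamini-Hochberg adjustment gave an adjusted p of 0.402. Cdca7 (ENSMUSG00000055612, chr2:72476159-72486893, plus strand of GRCm38), whose product recruits the Hells remodeller, had 159 CPM (154 to 164), 151 CPM (146 to 157) and 179 CPM (173 to 185), with edgeR adjusted p = 0.864. The WT library was the highest for both partners, also over all kept cells, where Hells had 37.2, 40.9 and 50.7 CPM and Cdca7 61.9, 59.1 and 72.3 CPM. Other members were also highest in WT over all kept cells, among them Mcm6 (44.1, 45.8 and 49.8 CPM) and Nasp (80.5, 82.8 and 89.3 CPM). Not all were: Pcna had nearly equal values there (61.2, 60.8 and 61.3 CPM), and Usp1 was lowest in WT (38.3, 40.4 and 37.3 CPM). Within the ISC-like cells Hells had 121, 133 and 159 CPM and within the TA-like cells 82.4, 86.2 and 106 CPM. For Cdca7 the libraries were closer in ISC-like cells (195, 206 and 209 CPM) than in TA-like cells (116, 104 and 148 CPM).

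Nasp, a chaperone of histones H3 and H4, had 185, 194 and 207 CPM (chr4:116601052-116627941, minus strand of GRCm38). Uhrf1, which reads hemimethylated DNA behind the fork, had 49.3, 55.0 and 59.6 CPM. Atad2, a chromatin-bound ATPase, had 58.1, 63.1 and 68.6 CPM. Chaf1b, a subunit of the assembly factor that deposits histones on new DNA, was the exception in this group with 29.3, 34.7 and 30.8 CPM. The 6 genes summed to 584 CPM (574 to 594), 606 CPM (596 to 617) and 678 CPM (667 to 689), or -0.22 and -0.16 on the log2 scale. These ratios, to which Hells and Cdca7 contribute, were the lowest of the 7 role groups in both cKO libraries, also with TMM-scaled totals. The sums of the MCM subunits (-0.15 and -0.08) and the S phase regulators (-0.12 and -0.01) lay below WT in both as well. For the MCM sum both cKO intervals also ended below that of WT (429 to 446 and 449 to 468 against 476 to 495 CPM).

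Checkpoint and repair genes gave no common direction. Usp1, which removes ubiquitin from Pcna and from the Fanconi protein Fancd2, had 75.1, 79.9 and 70.7 CPM. Clspn and Tipin, which link the fork to the checkpoint, had 37.1, 39.4 and 38.0 CPM and 58.2, 66.0 and 59.8 CPM. The exonuclease Exo1, the helicase Blm and the repair gene Rad51ap1 had 12.5, 14.3 and 15.5 CPM, 13.6, 12.4 and 14.7 CPM, and 23.1, 27.3 and 24.9 CPM. Of the S phase regulators, Dtl, the adaptor of the ubiquitin ligase that removes Cdt1, had 37.2, 37.7 and 41.9 CPM, and E2f8, a repressor of E2F targets, had 35.2, 37.2 and 39.8 CPM. Slbp, which binds the stem-loop of histone mRNAs, had 103, 112 and 108 CPM, and Casp8ap2, needed for histone gene expression, had 37.7, 42.1 and 41.5 CPM.

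Of 52 other genes of the replication pathway 33 lay below WT in both cKO libraries and 7 above, with 4 and 0 whose counting intervals were off that of WT, a median log2 ratio of -0.06 and 0 called by edgeR (3 had an unadjusted p under 0.05, all lower) or by DESeq2 (0 under 0.05). Cdt1, which loads the MCM ring with Cdc6, and Mcm10, which acts later in activating the helicase, were among them. Cdt1 had 39.4, 38.9 and 47.7 CPM and Mcm10 had 25.2, 25.7 and 31.6 CPM. Msh6 and Wdr76 also lay below, at 23.5, 21.5 and 27.2 CPM and 24.9, 21.8 and 27.6 CPM, while thymidine kinase (Tk1) lay above at 84.6, 99.9 and 77.3 CPM. Of the 33 other replication genes with at least 20 CPM, 21 lay below WT in both cKO libraries and 4 above. Over all 5603 such genes the shares were 28.7% and 39.1%. Counting intervals were off WT for 3 of the 33 below and 0 above, against 5.35% and 9.82%. Of 52 G2M genes 21 lay below and 14 above, with 4 off WT on each side, a median of -0.02 and 0 called by edgeR (1 with an unadjusted p under 0.05) or by DESeq2 (0 under 0.05). Mki67, the proliferation marker, had 241, 232 and 270 CPM, Hjurp 99.9, 94.0 and 115 CPM and Kif20b 59.3, 57.3 and 66.0 CPM, whereas Cdca3 had 175, 188 and 154 CPM and Cks1b 79.9, 81.5 and 71.0 CPM. Of the 46 G2M genes with at least 20 CPM, 18 lay below WT in both cKO libraries and 12 above, with 4 off WT on each side.

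Transcripts of other cell types within the crypt cells also differed between the libraries. The 12 Paneth markers summed to 765, 925 and 1315 CPM, the 11 goblet markers to 666, 808 and 1013 CPM, and the 12 enteroendocrine markers to 207, 31.7 and 366 CPM, each highest in WT. The 19 enterocyte markers summed to 4051, 4834 and 4517 CPM and the 11 tuft markers to 218, 197 and 211 CPM, with WT in the middle for both. The 12 ISC markers summed to 2947, 2754 and 3160 CPM and the 15 TA markers to 4733, 5276 and 4952 CPM. Their part in the S phase gene levels was not tested.

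The summed UMIs of the 37 genes were then examined cell by cell. Each crypt cell was thinned to 24000 UMIs, which left 493, 403 and 457 cells and left out 147, 49 and 131 shallower ones. The median thinned cell held 51, 52 and 60 UMIs of the 37 genes. A cut at 50.02 UMIs, placed by Otsu's method on all cells pooled, counted 51.3% (46.8 to 55.8, exact binomial), 51.1% (46.1 to 56.1) and 60.4% (55.7 to 64.9) of cells as high. The mean cKO share minus the WT share was -9.18 percentage points, and the upper bounds of both cKO shares reached just past the lower bound of WT. The score is a continuum and 279 of the 1353 cells (20.6%) lay within 0.25 log2 units of the cut. Without thinning the shares were 49.1%, 55.1% and 57.3%, and with a cut at the 75th percentile 23.1%, 23.3% and 27.6%.

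**Figure D2:**
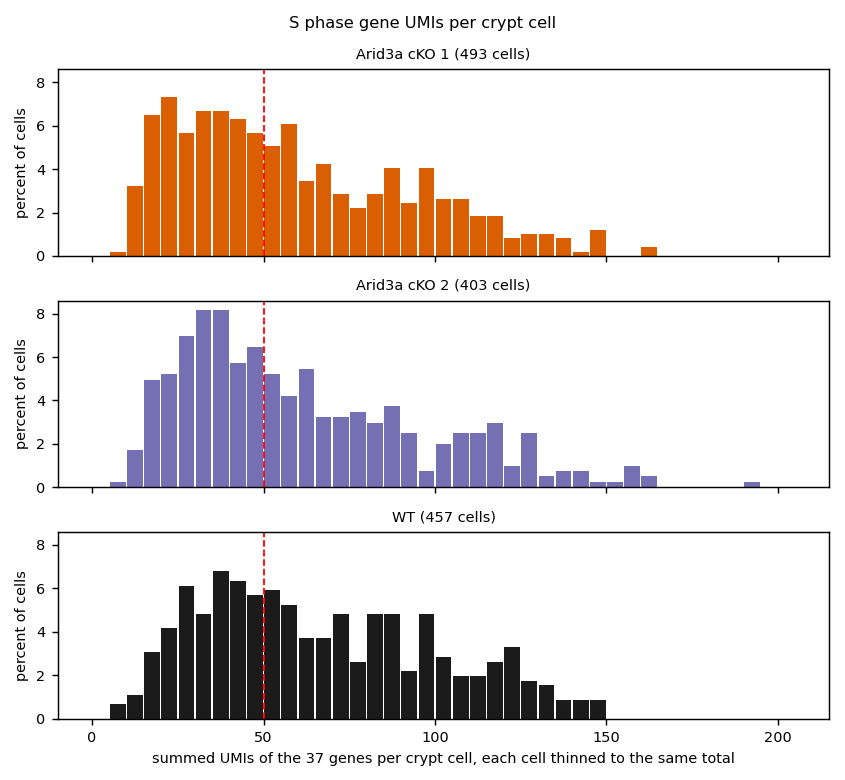
Percent of crypt cells (vertical axis) by summed UMIs of the 37 genes after thinning each cell to 24000 UMIs (horizontal axis, bins of 5 UMIs), with 1 panel per library and the pooled cut at 50.02 UMIs as a dashed line. The cells form a broad range with no gap at the cut, and 51.3%, 51.1% and 60.4% of them lie above it.

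Among ISC-like cells 54.2%, 55.3% and 67.1% were high, with intervals of 48.1 to 60.2, 48.3 to 62.2 and 60.6 to 73.1, of which that of cKO 1 ended below that of WT. Among TA-like cells the shares were 47.7%, 46.7% and 53.5%, and their intervals overlapped broadly. In the high cells the summed level was 3436 CPM (3401 to 3472), 3615 CPM (3577 to 3653) and 3549 CPM (3514 to 3584), with WT in the middle. In high cells 14 members lay below WT in both cKO libraries, 11 above and 12 between. Of 5633 genes with at least 20 CPM in high cells 26.3% lay below in both and 40.6% above in both, and the median log2 ratio was -0.02 over the members and 0.02 over these genes. Hells was lower in both cKO libraries there as well, at 166, 168 and 198 CPM. Usp1 lay above WT in high cells as well, at 101, 102 and 86.9 CPM. In the cells under the cut the 37 genes summed to 1282, 1382 and 1386 CPM. The cut acts on the same sum and truncates both levels, so they do not tell fewer cells in S phase from lower levels in each, and high cells are not compared with others.

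Cells were then divided by both the 37 genes and the 52 G2M genes, each with its own cut. Cells high in the S phase genes only made up 29.4%, 26.8% and 33.3% of thinned crypt cells, and cells high in both 21.9%, 24.3% and 27.1%. Cells high in G2M genes only made up 29.2%, 30.8% and 27.4%. Cells high in neither made up 19.5% (16.1 to 23.2), 18.1% (14.5 to 22.2) and 12.3% (9.39 to 15.6). In this last class the interval of cKO 1 lay above that of WT, while that of cKO 2 overlapped it.

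**Figure D3:**
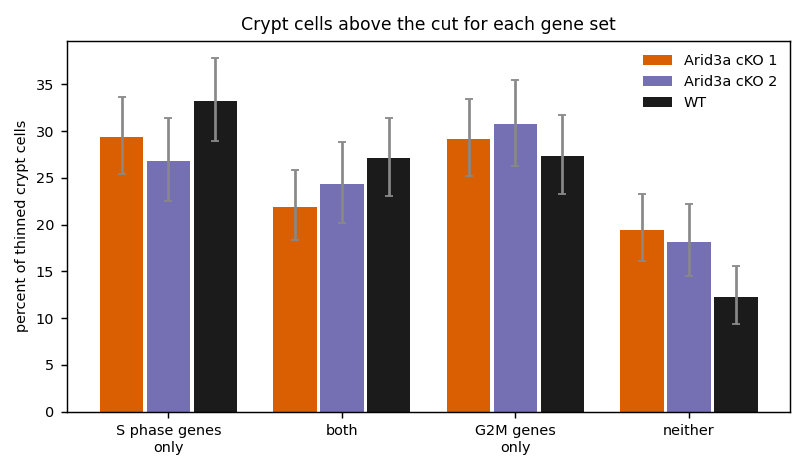
Percent of thinned crypt cells in each library (bars, from 0) that were high in the 37 S phase genes only, in both gene sets, in the 52 G2M genes only, or in neither, with exact binomial 95% intervals. WT has the highest bar in both classes high in S phase genes and the lowest in the class high in neither (12.3% against 19.5% and 18.1%).

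The members did not all vary together from cell to cell. Across thinned crypt cells within a library (493, 403 and 457 cells), the Pearson correlation of a member with the sum of the others ran from 0.17 (Cdca7 in cKO 2) to 0.70 (Hells in WT), and the median of the members' means was 0.49. All points share the thinned depth, and low counts weaken the values of rare genes. With the summed G2M genes the correlation ran from negative to positive along the list. Lowest were Ung (-0.40, -0.48 and -0.55) and Mcm6 (-0.37, -0.47 and -0.52), followed by Cdca7, Mcm2, Mcm3 and Mcm4. Highest were Tyms (0.34, 0.37 and 0.29), Rrm2 (0.31, 0.36 and 0.24) and E2f8 (0.29, 0.34 and 0.19). The sign was negative in every library for 19 members and positive in every library for 13.

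**Figure D4:**
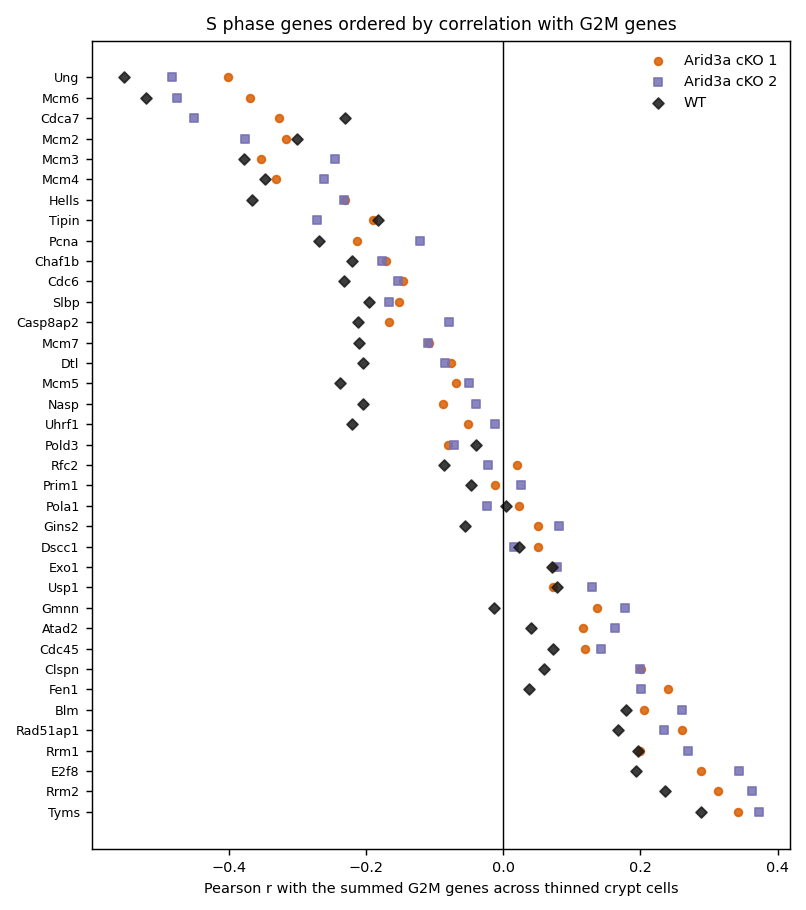
Pearson correlation of each of the 37 genes with the summed G2M genes across thinned crypt cells (horizontal axis), with 1 symbol per library and genes ordered by the mean. Ung, Mcm6 and the other MCM subunits Mcm2, Mcm3 and Mcm4 lie at the negative end, and E2f8, Rrm2 and Tyms at the positive end in each library.

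The levels in the cell classes, pooled over the libraries, followed a like order. The classes were cut from the same sums, so the ratios are a description. Ung had 84.9 CPM in cells high in S phase genes only and 28.7 CPM in cells high in both sets, a ratio of 0.338, and the ratio was 0.632 for Cdc6, 0.645 for Mcm2 and 0.671 for Mcm3. It was 2.504 for Rrm2, 2.22 for E2f8 and 1.78 for Tyms. Pcna lay near the middle at 1.10. Cdca7 was also present in cells high in neither set, at 179 CPM against 207 CPM in cells high in S phase genes only, while Rrm2 had 6.89 CPM against 50.2 CPM.

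Between the crypt clusters, which had been built without these genes, members differed in the same way at the ends of the list. Ung was 3.31, 3.77 and 3.74 times as high in ISC-like as in TA-like cells (cKO 1, cKO 2 and WT), and Mcm2 was 1.86, 1.95 and 1.79 times as high. Rrm2 stood at 0.308, 0.379 and 0.456 times and E2f8 at 0.347, 0.389 and 0.492 times its TA-like level. In every library 17 members were higher in ISC-like cells and 17 in TA-like cells, and 3 (Slbp, Pold3 and Pola1) were mixed. Histone and mitotic genes (Hist1h1b, Ube2c, Nusap1 and Top2a) led the TA-like cluster, so the clusters also differ in cell cycle genes.

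Along the crypt-villus axis, ISC-like, TA-like and enterocyte-like cells were put in 5 bins of equal size by the ratio of villus to crypt marker genes, none of them members. In the bin nearest the crypt base the 37 genes summed to 2352, 2802 and 2633 CPM, and in the next to 2393, 2410 and 2642 CPM. The third bin held 660, 1073 and 596 CPM, with cKO 2 above the others. The fourth had 239, 234 and 227 CPM and the fifth 225, 209 and 202 CPM. The order of the libraries changed along the axis, with WT the highest in the second bin and the lowest in the last 3. In the fourth bin, however, all counting intervals overlapped (229 to 249, 223 to 245 and 217 to 237). In the fifth that of cKO 2 overlapped WT (200 to 219 against 192 to 213).

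Of the other cell classes, goblet-like cells had 867, 986 and 813 CPM, tuft-like cells 656, 943 and 831 CPM and enteroendocrine-like cells 411, 476 and 367 CPM. Paneth-like cells had 258 CPM, 59.0 CPM and 254 CPM, from 34, 17 and 29 cells. The low value of cKO 2 rested on 150 UMIs in those 17 cells. Enterocyte-like cells had 245, 232 and 224 CPM, and the unnamed cluster 2, led by Krt19, Ccl20 and Edn2, had 393, 376 and 368 CPM. In goblet-like cells Slbp had 69.1, 69.3 and 50.03 CPM, Tyms 50.9, 56.4 and 49.8 CPM, Pcna 47.0, 57.8 and 39.3 CPM and Gmnn 45.7, 50.7 and 41.4 CPM, each lowest in WT. Hells had 26.4, 34.7 and 31.6 CPM and Cdca7 32.9, 28.8 and 36.5 CPM in the same cells, in a different order of libraries.

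The transcripts that remained in enterocytes came mainly from few members. In cluster 0, the largest enterocyte-like cluster (405, 309 and 372 cells), 30 of the 37 genes were below 10% of their crypt level in every library, and 7 were not. Gmnn (ENSMUSG00000006715, chr13:24751845-24761923, minus strand of GRCm38) had 53.3, 51.7 and 53.7 CPM there, 45.9%, 39.1% and 42.9% of its crypt level. Casp8ap2 stood at 31.5%, 32.4% and 34.7%, Pcna at 34.1%, 30.05% and 23.0%, Slbp at 29.5%, 26.8% and 23.4%, Usp1 at 24.7%, 24.8% and 27.1%, Rfc2 at 23.5%, 20.97% and 21.8% and Pold3 at 11.1%, 14.6% and 15.3%. Pcna had 35.1, 31.9 and 25.6 CPM in these cells and Slbp 30.4, 30.1 and 25.3 CPM, both lowest in WT. Gmnn, Casp8ap2, Pcna, Slbp and Usp1, with the highest mean percent of crypt level, together made up 64.3%, 66.8% and 65.4% of the members' UMIs there. By UMIs, Rfc2 (238, 194 and 196) stood above Casp8ap2 (147, 142 and 163).

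Transcripts of the helicase subunits were at a small share of their crypt level in the same cells. The 6 MCM subunits together stood at 3.23%, 2.14% and 2.11% of their crypt level. Mcm6 had the most UMIs of them (86, 48 and 61), followed by Mcm7 (51, 30 and 39). Mcm3 had 3, 4 and 1 UMIs and Mcm5 had 10, 2 and 0. RNA shed by crypt cells was not estimated, and its part in these levels was not tested. In cells thinned to 24000 UMIs, Gmnn was seen in 71.4%, 64.1% and 74.5% of the 332, 256 and 290 deep enough cluster 0 cells and in 89.9%, 90.3% and 92.1% of crypt cells, while Mcm3 was seen in 0.301%, 1.56% and 0% of the former and 64.7%, 73.2% and 72.9% of the latter. The 0% of WT, from 290 cells, allows a share of cells with a UMI of up to 1.03%. Mcm6 was seen in 12.0%, 8.98% and 11.0% of these cluster 0 cells. Without thinning the Gmnn shares in cluster 0 were 78.8%, 74.4% and 75.8%. Hells, the member furthest below WT in crypt cells, was at 1.254%, 0.712% and 0.333% of its crypt level, from 16, 8 and 5 UMIs.

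**Figure D5:**
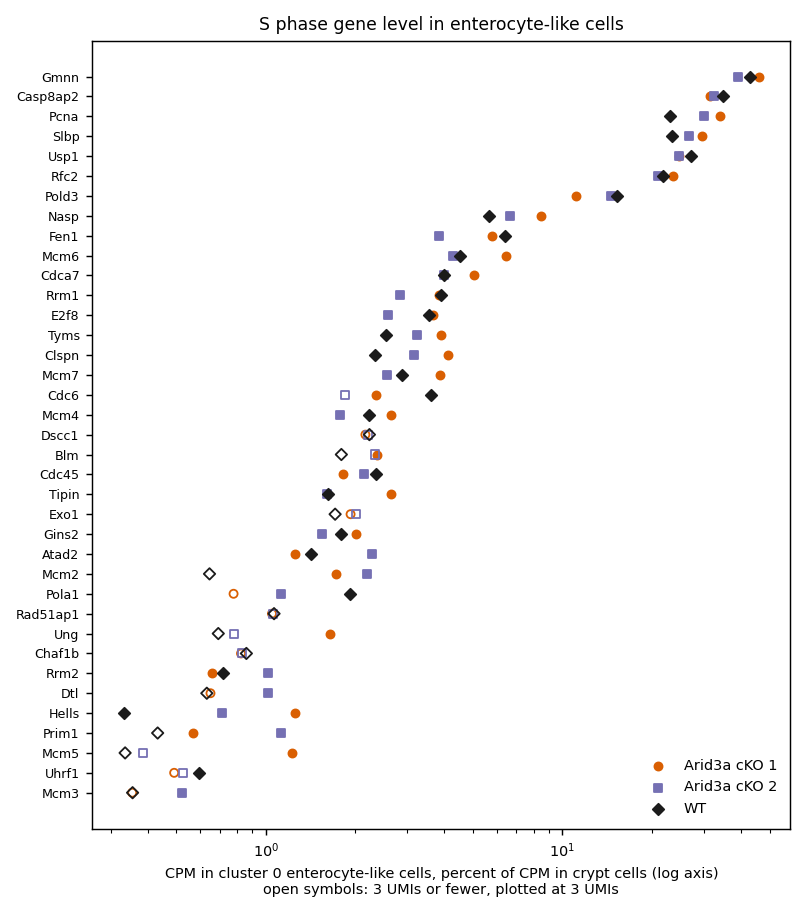
CPM of each of the 37 genes in cluster 0 enterocyte-like cells as a percent of its CPM in crypt cells (horizontal log axis), with 1 symbol per library. Symbols are open where 3 UMIs or fewer were counted, and these are plotted at 3 UMIs. From Gmnn (39.1% to 45.9%) to Pold3, 7 genes lie above 10%. Mcm3, Uhrf1 and Mcm5 are at the low end of the plotted values, which depends on this floor.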

How the data were processed

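The authors counted reads with Cell Ranger 5.0.0. Each deposited matrix gives UMI counts, not normalized, by gene and selected barcode. The submitters' processing notes list GRCh38 and hg19, both human builds, whereas the features carry mouse Ensembl identifiers, and which mouse build was used for counting is not given in the sources used here. From these counts, cells were kept by the study's limits, and the 3 libraries were integrated in Seurat 5.3.0 (R 4.3.3) by canonical correlation analysis with 3000 features, 2000 genes for the principal components, 30 components and resolution 0.3. The 141 genes of the S phase, other replication and G2M lists were left out of this step. Doublets were kept. Scrublet (scanpy 1.11.5) marked 110 cells (1.97%).

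A cluster was named from at least 3 listed markers among its top 50 genes by fold, or else at 1.5-fold. Clusters 2 and 7 stayed unnamed. The tuft-like cluster had 0.295 times the UMIs of its libraries and kept its name through 8 markers in its top 10.

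CPM were computed with exact Poisson intervals. Ratios used CPM + 5, which understates changes of low genes. Summed UMIs were tested with edgeR 4.0.16 (filterByExpr, TMM, Benjamini-Hochberg) and, as an alternative, DESeq2 1.42.0. Scripts were tested on simulated data. All 37 genes are reported by role. Of the other 2 lists up to 5 genes each were named, at 20 CPM or more, ranked by the weaker of the cKO log2 ratios where both had the same sign. The members and lists were chosen with earlier results of these data known. Alternatives changed cell limits, doublets, clustering, scaling, pseudocount, cut and filter.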

Additional observations from a re-analysis of the deposited data

Results flagged for a closer look

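The summed S phase genes lay below WT in both cKO libraries in crypt cells and above WT in both in 3 other classes. This difference between classes was not tested. Goblet-like cells had 867, 986 and 813 CPM (cKO 1, cKO 2 and WT). Enteroendocrine-like cells had 411, 476 and 367 CPM in the same order, from 45, 43 and 86 cells. Enterocyte-like cells had 245, 232 and 224 CPM, pooled over clusters 0, 4 and 5. WT was lowest in cluster 0 (232, 220 and 211 CPM) and cluster 4 (268, 268 and 246 CPM). In cluster 5 WT lay between the cKO libraries (236, 213 and 227 CPM). In each of these classes the counting interval of 1 cKO library overlapped that of WT. This was cKO 1 for goblet-like cells (834 to 900 against 786 to 841) and enteroendocrine-like cells (368 to 457 against 337 to 398). For enterocyte-like cells it was cKO 2 (225 to 238 against 218 to 231).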

How the results depend on the processing

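Over the 7 results, 38 of 44 alternatives other than leaving out a library kept the value within the spread of the cKO libraries, or the count within 1.5 times. That spread was wide for some results, with an SD of 0.083 for the crypt sum (-0.085) and 0.052 for high cells (-0.010). For these the tally is a weak check. The share of high cells (cKO minus WT, -9.18 percentage points) was -5.24 without thinning, -4.35 with a cut at the 75th percentile, -7.94 with limits of 500 genes and 25% mitochondrial UMIs, -8.99 without the highest doublet scores, -8.21 without integration and -8.71 at resolution 0.8. For this share the cKO spread was only 0.143 percentage points, so small shifts also fell outside it. The largest shifts came without thinning and with the 75th percentile cut, and their cause was not tested. Leaving out each cKO library in turn gave -9.28 to -9.08 for this share, -0.12 to -0.018 for the median log2 ratio (-0.10 with both, and -0.018 without cKO 1), -0.14 to -0.03 for the crypt sum (-0.08 with both, and -0.03 without cKO 1), -0.17 (without cKO 2) to -0.04 (without cKO 1) for all cells (-0.11 with both), -0.05 to 0.03 for high cells and 22 (without cKO 1) to 33 (without cKO 2) for the count below WT. In the other alternatives that count ran from 18 to 23, edgeR called 0 members in each, and DESeq2, run on the reported setting alone, called 0. The sum over all cells was -0.03 with the limits of 500 genes and 25%, within a wide cKO spread of 0.0872. With 2 cKO libraries, leaving out 1 cannot move their mean by more than their SD, and WT, being 1 library, cannot be left out. No paired analysis was possible because WT has replicate 1 alone. Genes under 20 CPM (Cdc6, Dscc1, Exo1 and Blm) have wide counting intervals.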
